A study of Drosophila melanogaster with 2 samples.

Results

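The genes described here encode the subunits of the proteasome, which degrades ubiquitin-tagged proteins, and of the COP9 signalosome, a related complex that acts on cullin ubiquitin ligases. They were chosen by symbol: a protein-coding gene on the chromosome arms whose symbol begins with Prosalpha or Prosbeta, or with Rpn, Rpt or CSN followed by a digit. This gave 56 genes of 13945. Of these, 25 belong to the core particle, 14 to the base and 9 to the lid of the regulatory particle, and 8 to the signalosome. No binding value entered this symbol rule, though the members were chosen with earlier results of these data known. Binding was measured by chromatin immunoprecipitation and sequencing of Drosophila melanogaster embryos that carried a CG11085-eGFP fusion, where CG11085 is a homeodomain protein gene and eGFP is a green fluorescent protein tag. The antibody was directed against GFP, the embryos were whole and 0 to 24 h old, and chromatin had been sheared by sonication. Both samples, biological replicates 1 and 2, form a single group and carry the fusion from an inserted transgene, and what drives its expression is not given in the sources used here. No control library was analysed here, so no background level at these sites can be set beside the values, and there is no treated against untreated comparison.

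The proteasome is built around the core particle, a barrel of stacked α and β rings whose β rings hold the proteolytic sites. The regulatory particle caps the barrel: its base carries the Rpt ATPases, which unfold substrates, with the scaffolds Rpn1 and Rpn2 and the ubiquitin receptors Rpn10 and Rpn13, and its lid carries the deubiquitinase Rpn11. The signalosome resembles the lid in its subunits, and its CSN5 subunit removes NEDD8 from cullins.

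A gene was counted as bound where the summit of a peak, its point of highest signal as the authors gave it, lay within 1 kb of a transcription start site (TSS). The peaks are the authors' conservative list over both replicates, kept at a global irreproducible discovery rate (IDR) of 0.01 or below. The IDR measures how alike both replicates rank a region, and its −log10 rises with reproducibility. Of the 56 genes, 9 were bound: Prosalpha3, Prosalpha7 and Prosbeta2 of the core, Rpt5 and Rpn2 of the base, Rpn3, Rpn5 and Rpn6 of the lid, and CSN5 of the signalosome. To show what lies under the signal, the bases around the summit, 50 to each side, are given for 6 of them, on the gene's strand, which is the plus strand in each. The sequences are from the RefSeq genome, Release 6 (dm6). They stop at the base before the gene's own start, which shortens Rpn3 and Rpt5. Counted from 1 at the left end, the summit is base 51, which for Rpn3 lies past the printed stretch. Capitals mark TAATT, the core of many homeodomain sites, or ATCGAT and TATCGATA, the core and full form of the DNA replication-related element, on either strand. The ATCGAT core lies inside TATCGATA, and TAATT inside TAATTA.
Rpn3, chr2L:19051753-19051789: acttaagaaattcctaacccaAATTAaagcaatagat
Rpt5, chr3R:23752815-23752875: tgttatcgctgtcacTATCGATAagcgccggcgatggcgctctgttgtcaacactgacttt
Prosbeta2, chr3L:14999817-14999917: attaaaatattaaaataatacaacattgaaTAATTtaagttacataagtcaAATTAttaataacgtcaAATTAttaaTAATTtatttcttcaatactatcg
Rpn5, chr3R:5789155-5789255: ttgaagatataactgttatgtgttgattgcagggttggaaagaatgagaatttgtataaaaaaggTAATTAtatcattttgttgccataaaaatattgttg
CSN5, chr3R:16469745-16469845: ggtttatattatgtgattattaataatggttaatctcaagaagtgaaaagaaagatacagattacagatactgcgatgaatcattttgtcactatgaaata
Rpn2, chr3R:29153422-29153522: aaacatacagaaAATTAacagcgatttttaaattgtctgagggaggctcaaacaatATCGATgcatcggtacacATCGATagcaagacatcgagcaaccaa
The stretches differ from one another: Prosbeta2 holds 4 copies of TAATT in a window of 14.9% G and C, Rpt5 holds the full replication-related element in a window of 44.6% G and C, and CSN5 holds none of the words.

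The bound share of the 56 genes was 16.1% (9 genes, exact Clopper-Pearson 95% interval 7.62 to 28.3%), beside 15.1% of all 13945 protein-coding genes. The share is near that background, so it is not a result about these genes. The intervals cover counting error over genes only. Read depth is unknown, since the files give no read totals. In the authors' larger list the same 9 genes were bound, again 16.1% beside a background of 17.3%. Replicate 1 by itself gave 6 bound genes (10.7%, background 13.3%), and replicate 2 by itself gave 5 (8.93%, background 11.2%). Prosalpha3, Prosbeta2 and Rpt5 were bound in both single-replicate lists. Rpn6, Rpn3 and Rpn2 were bound in that of replicate 1 only, and Rpn5 and CSN5 in that of replicate 2 only. Prosalpha7 was in neither, and entered through the comparison of both replicates. For scale, 52 of 92 cytoplasmic ribosomal protein genes (56.5%) and 19 of 73 mitochondrial ones (26%) were bound in the conservative list.

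The bound share was also counted within each particle, and no test of a difference between particles was made. Bound were 3 of 25 core genes (12%, interval 2.55 to 31.2%), 2 of 14 base genes (14.3%, interval 1.78 to 42.8%), 3 of 9 lid genes (33.3%, interval 7.49 to 70.1%) and 1 of 8 signalosome genes (12.5%, interval 0.316 to 52.7%). All 4 intervals overlap and each holds the 15.1% of all genes. The higher share of the lid rested on 3 genes, and fell to 2 genes by replicate 1 alone and 1 gene by replicate 2 alone. Within the core, 2 of 12 α-ring genes and 1 of 13 β-ring genes were bound. Within the base, 1 of 9 ATPase genes and 1 of the 5 others were bound.

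**Figure D1:**
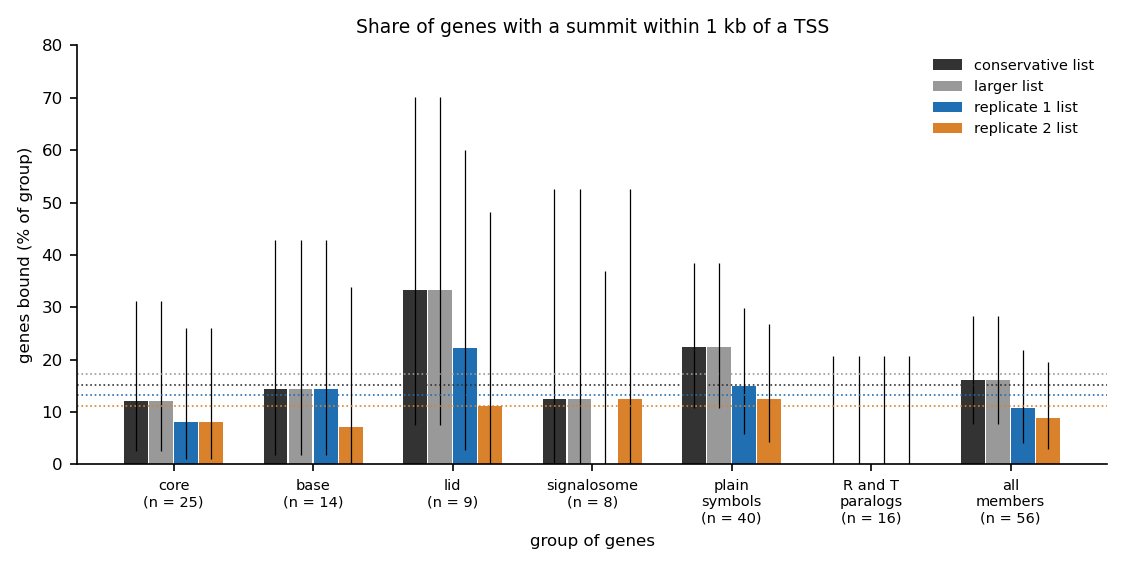
The bars give the percentage of genes bound in each group, with exact 95% intervals, in the conservative list, the larger list and the list of each replicate, and the dotted lines give the percentage of all protein-coding genes in the same lists. The intervals of core, base, lid and signalosome overlap, and the bars of the R and T paralogs are at 0.

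All 9 bound genes had plain symbols. Of the symbols 16, with an R (12) or a T (4) after the subunit number, denote paralogs, many of which are known from the male germline of the fly. None of these 16 was bound (0.00%, upper 95% limit 20.6%), against 9 of the 40 genes with plain symbols (22.5%, interval 10.8 to 38.5%). The intervals overlap, and no test of the difference was made. A divergent neighbour, that is a protein-coding TSS on the other strand within 1 kb upstream, was present at 27 of the 40 plain genes (67.5%) and 4 of the 16 paralogs (25%), and its part in the split was not tested.

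Prosalpha3, an α-ring gene, had the highest signal of the bound members in the pooled reads and in replicate 2, while in replicate 1 Rpn6 and Rpn3 were higher. Its peak, chr2R:20994659-20994998, had a signal of 153.5 in the pooled reads, 97.0 in replicate 1 and 62.9 in replicate 2. Signal is the authors' value per peak, on a scale the sources used here do not state, so levels can be ranked within a list but not read as reads. The summit lay 71 bp upstream of the TSS, and the −log10 IDR was 3.36. Prosalpha7, another α-ring gene, was the weakest in the pooled reads. At chr2R:9847667-9848006 its signals were 73.8 pooled, 58.5 in replicate 1 and 26.6 in replicate 2, and its −log10 IDR of 2.10 was close to the cutoff of 2.00. Its summit was 1 bp upstream of the TSS. The third core gene was Prosbeta2, which encodes the β subunit with trypsin-like activity. Its peak, chr3L:14999697-15000036, had signals of 125.7 pooled, 71.9 in replicate 1 and 51.0 in replicate 2, a −log10 IDR of 2.92, and a summit 84 bp upstream. In the pooled reads the core held both ends of the range among the bound members, while in replicate 1 the ends were Rpn6 and CSN5.

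In the base, Rpt5, 1 of the ATPases, had a peak at chr3R:23752695-23753034. Its signals were 141.2 pooled, 82.1 in replicate 1 and 56.6 in replicate 2, the summit lay 11 bp upstream of the TSS, and the −log10 IDR was 3.11. Rpn2, a scaffold of the base, had a peak at chr3R:29153302-29153641 with signals of 77.5 pooled, 59.3 in replicate 1 and 26.7 in replicate 2. Its summit was 52 bp upstream and its −log10 IDR 2.11, so Rpn2, like Prosalpha7, stood near the cutoff.

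The lid genes Rpn6, Rpn3 and Rpn5 encode subunits of its scaffold. At Rpn6 (chr2R:14752199-14752538) the signals were 151.0 pooled, 118.9 in replicate 1 and 36.5 in replicate 2. This was the highest replicate 1 value of the 9 and the widest gap, 3.26 times the value of replicate 2. The summit lay 98 bp upstream of 1 of its 2 TSSs, within an intron of the longer form, with a −log10 IDR of 2.90. At Rpn3 (chr2L:19051633-19051972) they were 150.6, 101.3 and 44.4, with a −log10 IDR of 3.04. Its summit, 13 bp downstream of the TSS in the 5′ untranslated part of the first exon, was the one of the 9 not upstream. Rpn5 had a peak at chr3R:5789035-5789374 with signals of 103.7 pooled, 61.8 in replicate 1 and 56.1 in replicate 2, the most even pair of the 9. Its summit was 288 bp upstream, inside the neighbouring gene Hat1 but in none of its exons, and the −log10 IDR was 2.83.

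CSN5, the deneddylating subunit, was the bound signalosome gene. Its peak at chr3R:16469625-16469964 had signals of 93.2 pooled, 50.3 in replicate 1 and 39.7 in replicate 2, with a −log10 IDR of 2.39. The summit lay 304 bp upstream of its TSS, the farthest of the 9. The gene alien, which the reference lists under the synonym CSN2, is a signalosome gene that the symbol rule misses, and it was looked up after the values of the others were seen. It was bound in all 4 lists, with signals of 228.0 pooled, 151.0 in replicate 1 and 88.4 in replicate 2, above every one of the 9 in the pooled reads. With alien counted, 2 of 9 signalosome genes would be bound.

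**Figure D2:**
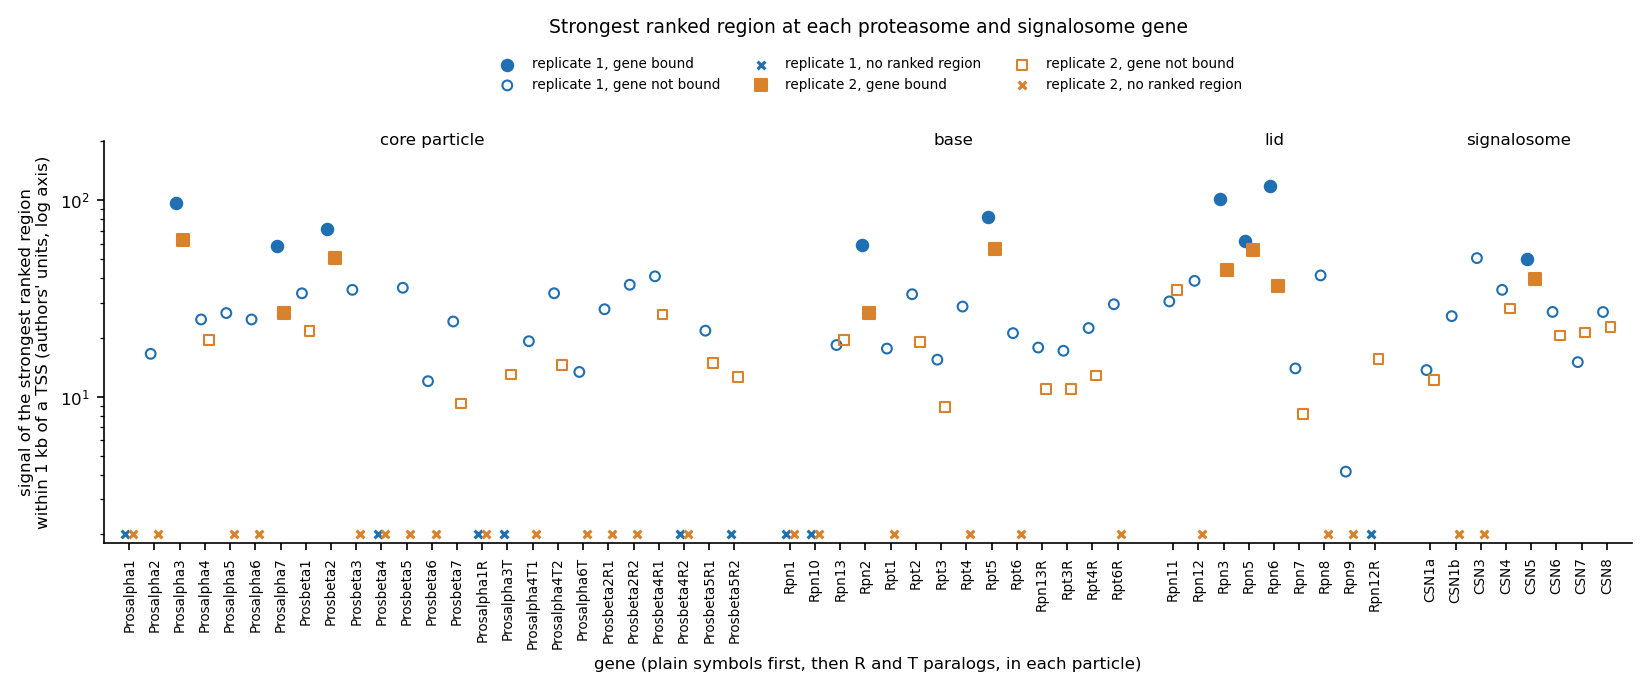
Each point is the signal of the strongest ranked region within 1 kb of a TSS of a gene, on a log axis in the authors' units, with circles for replicate 1, squares for replicate 2, filled symbols for the 9 bound genes and crosses at the foot for no region. The bound genes span 50.3 to 118.9 in replicate 1 and 26.6 to 62.9 in replicate 2, and CSN3 (not bound) reaches 50.8 in replicate 1 with no region in replicate 2.

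Replicate 1 had the higher signal at all 9 bound members, with ratios of replicate 1 to replicate 2 from 1.10 at Rpn5 to 3.26 at Rpn6 and a median of 1.54. The scale of each file is not stated, so a ratio is not a measured difference in binding. The same direction held for most peaks on the arms. Of the 2561 conservative peaks with a region in both replicates 2344 were higher in replicate 1, and the median ratio was 1.51, with quartiles of 1.23 and 1.85. The ratios of Rpn6, Rpn3 (2.28), Rpn2 (2.22) and Prosalpha7 (2.20) lay above the upper quartile. The pooled signals of the 9 had a median of 125.7, beside 124.1 over all 2610 peaks with quartiles of 91.8 and 184.5. Over all 2109 bound protein-coding genes the median was higher, at 145.8, with a shared peak counted for each of its genes. Prosalpha3 ranked 924 of 2610 and Prosalpha7 ranked 2375. Of the 9 peaks, 5 lay above the median of all peaks. All 9 lay below the upper quartile, in a list that reached a signal of 2118.

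**Figure D3:**
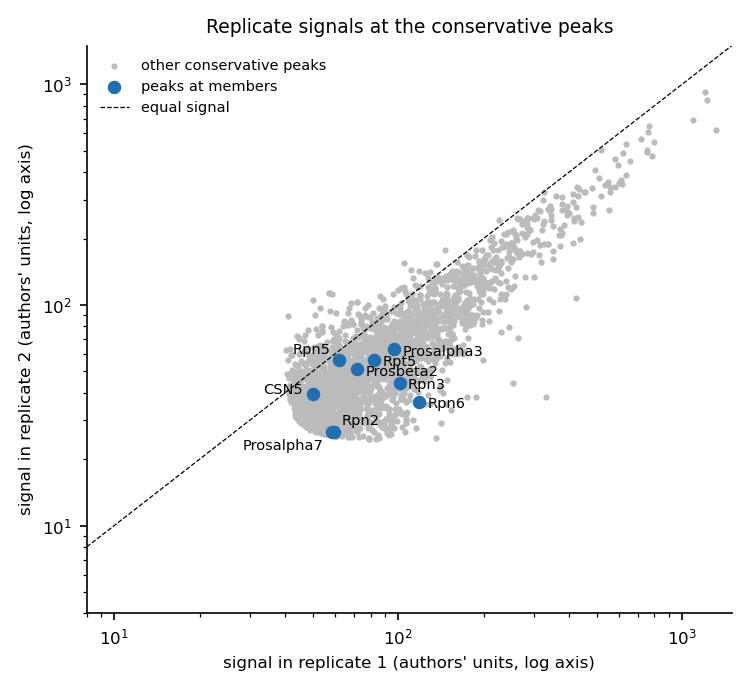
Each grey point is a conservative peak with its signal in replicate 1 and replicate 2 on log axes in the authors' units, the dashed line marks equal signal, and the blue points are the 9 peaks at bound genes. All 9 lie below the line, Rpn5 closest to it and Rpn6 farthest.

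Each of the 9 summits also lay within 1 kb of the TSS of exactly 1 other gene, and each of these was a protein-coding gene on the other strand. The peaks therefore cannot be given to the proteasome gene alone. RanBP3, which encodes a Ran-binding protein, starts 42 bp from Rpt5, and the summit falls between both starts, 31 bp from that of RanBP3. Slbp, for the histone mRNA stem-loop binding protein, starts 258 bp from Rpn2. The augmin gene dgt3 starts 519 bp from Prosalpha3, the widest spacing, and mRpL39, for a mitochondrial ribosomal protein, 285 bp from Prosbeta2. CG1671 starts 225 bp from Prosalpha7, l(2)37Bb 178 bp from Rpn3, and ave, a gene of receptor tyrosine kinase signalling, 250 bp from Rpn6. At Rpn5 and CSN5 the neighbour was the nearer gene. Hat1, for a histone acetyltransferase, has a start 131 bp from the summit at Rpn5, and CG42232 starts 132 bp from the summit at CSN5, against 288 and 304 bp for the members. Measured to the neighbour's start nearest the summit, 8 of the 9 summits fell between both starts, Rpn3 being the exception. Hat1 has another start only 109 bp from Rpn5, and measured to that one the summit at Rpn5 lies within Hat1 and outside the interval between both starts. Rpn6 also has another start, that of its longer form, and both the summit and the start of ave lie within that form.

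**Figure D4:**
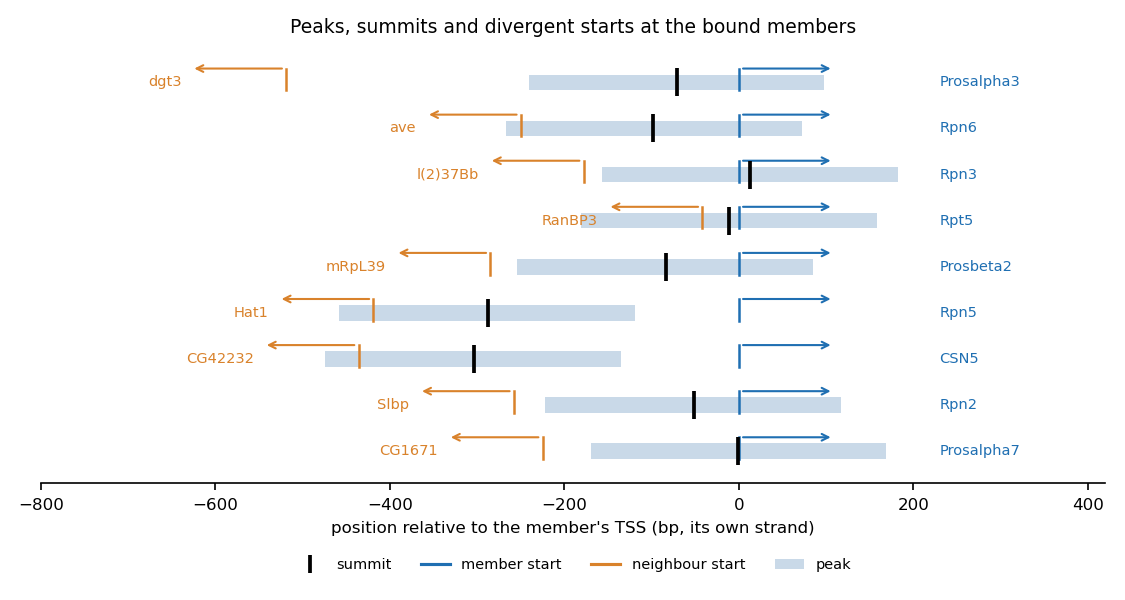
The peaks (bars) and summits (black ticks) of the 9 bound genes are drawn to scale against each gene's own TSS at 0, with the gene running to the right and the neighbour's start nearest the summit in orange. Each of the 9 has a divergent neighbour, and the summits lie between 304 bp upstream and 13 bp downstream of the TSS.

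Divergent neighbours were also counted across the genome. Of the 5052 protein-coding genes with one, 26.7% were bound, against 8.53% of the 8893 without. Of the 56 members 31 had one (55.4%, beside 36.2% of all genes), and 9 of these 31 (29.0%) were bound, near the 26.7%. None of the 25 members without one was bound. Of the summits 8 of 9 (88.9%) were upstream of the gene's nearest TSS, beside 1810 of 2109 bound genes (85.8%), and the median position was 71 bp upstream, beside 136 bp.

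The bound members were spread over the arms. On 3R 4 of 16 members were bound, 3 of 15 on 2R, 1 of 10 on 2L, 1 of 9 on 3L and 0 of 6 on X. On these arms between 14.6% (X) and 15.6% (3R) of all genes were bound.

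The other 47 members had no conservative summit within 1 kb, and 38 of them had a region in the ranked comparison of the replicates, which also holds regions below the cutoff. The highest −log10 IDR among these 38 was 1.07, below the cutoff of 2.00. The strongest was CSN4, with a pooled signal of 60.5 and 35.0 and 28.2 in replicates 1 and 2. It was followed by the lid deubiquitinase gene Rpn11 (59.7 pooled, 30.6 in replicate 1, 34.9 in replicate 2) and CSN8 (58.4 pooled, 27.0 and 22.7). The further lid genes Rpn12 (58.1 pooled) and Rpn8 (52.4 pooled) had regions in replicate 1 of 38.9 and 41.5 and none in replicate 2. In the pooled reads these 5 are below the weakest bound member, Prosalpha7 at 73.8. The nearest conservative summit to an unbound member lay at a median of 11290 bp from its TSS, and only Prosbeta6 had one within 2 kb. That peak, with a signal of 131.8, had its summit 1107 bp from the TSS of Prosbeta6, a gene singled out after its values were seen, and 36 bp from that of CG4098. At the other end, the nearest summit to the ATPase gene Rpt3 was 188277 bp away.

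Whether or not they passed the cutoff, 28 of the 56 genes had a ranked region in both replicates, 19 in replicate 1 only, 3 in replicate 2 only and 6 in neither. Replicate 1 was higher at 25 of the 28. The values compared are each gene's strongest region in each replicate, and these can be different regions, as at CSN4. In the pooled reads 47 of 56 had a region, with a median signal of 35.9 over those 47, beside 43.8 over all genes with one. Of the 56, 20 (35.7%) exceeded 39.6, the median over all genes with missing regions taken as lowest. Over the genes with plain symbols that had a region, the median was 38.3 for the core (11 of 14 genes) and 39.4 for the base (9 of 10). It was 42.2 for the signalosome (7 of 8) and 58.9 for the lid. All 8 plain lid genes had a region. Of these 8, 6 (75%) were above the all-gene median, and these were the 3 bound lid genes with Rpn11, Rpn12 and Rpn8. In single replicates the plain lid genes had medians of 40.2 in replicate 1 (all genes 32.4) and 36.5 over the 5 with a region in replicate 2 (all genes 19.3). Counted over all 8, 6 (75%) exceeded the all-gene median in replicate 1 and 4 (50%) in replicate 2, the latter the same share as among all genes. The weakest plain lid gene was Rpn7, at 23.9 pooled. Over the 12 R and T paralogs with a region the median was 30.6 and the highest value 42.8, and 1 of 16 exceeded the all-gene median. In single replicates 4 of 16 (25%) exceeded it in replicate 1 and 2 of 16 (12.5%) in replicate 2. These are descriptions of 8 and 16 genes, and no test was made on them.

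**Figure D5:**
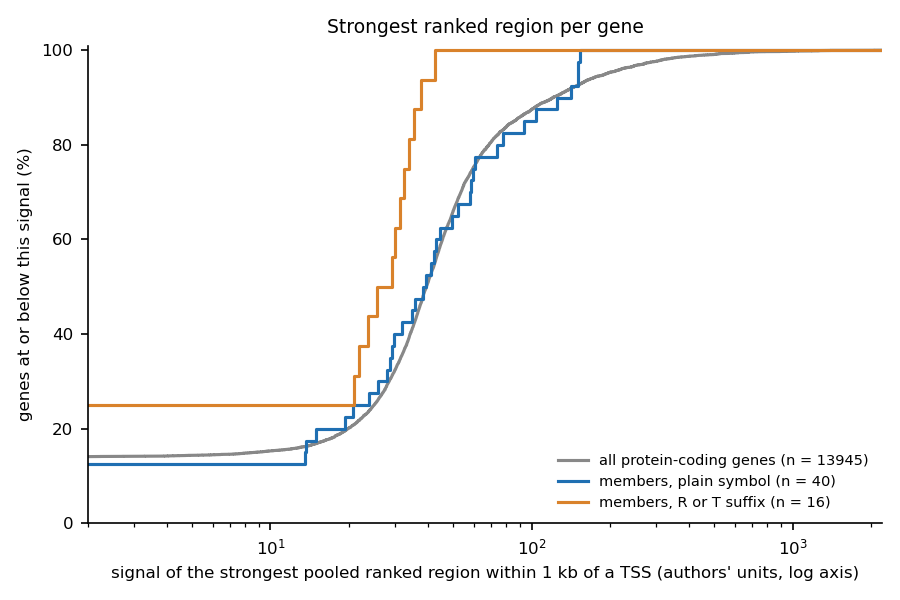
The lines give the percentage of genes whose strongest pooled region within 1 kb of a TSS is at or below a signal (authors' units, log axis), with genes that have no region included at the left edge. The line of the 16 R and T paralogs ends at 42.8, and that of the 40 plain genes follows that of all 13945 genes up to its end at 153.5.

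The words marked in the sequences were counted on both strands within 50 bp of each summit. TAATT occurred at 4 of the 9 member summits (Rpn3, Prosbeta2, Rpn5 and Rpn2), which is 44.4% beside 43.4% of all 2610 summits. TAATTA occurred at Rpn5 alone (8.66% of all summits), and TAATTG at none of the 9 (11.0% of all). TATCGATA, the element bound by the factor DREF in flies, occurred at Prosalpha3 and Rpt5, 22.2% beside 2.41% of all summits, and its core ATCGAT also at Rpn2, 33.3% beside 6.32%. Within 100 bp the counts were 7 for TAATT, 4 for TATCGATA and 6 for ATCGAT, beside 64.0%, 4.52% and 11.7% of all summits. None of the 9 held the core promoter words GGTCACACT and CATCNCTA within 50 bp, found at 0.613% and 2.15% of all summits. Nor did any hold CAGCTG (4.44% of all), the GAGA factor word GAGAG (10.1% of all) or the antioxidant response element TGACNNNGC (2.41% of all). A match is a description of the letters and not a site, and with 9 summits a single match moves a share by 11.1 percentage points. The 9 summits were also taken near a TSS, whereas the 2610 were not chosen by distance to a TSS. The 2 sets are therefore unlike, and the part of this in the shares was not tested.

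TATCGATA was not limited to the bound members. In the 300 bases from 250 before to 50 after the annotated gene start it occurred in 14 of the 56 promoters (25%), beside 9.36% of all 13945 and 14.1% of the 2109 bound genes. It was present at 4 of the 9 bound members (Prosalpha3, Prosbeta2, Rpn3 and Rpt5) and 10 of the 47 unbound (21.3%). All 14 were plain genes, 35.0% of the 40. The core ATCGAT was in 42.9% of member promoters beside 23.3% of all, and TAATT in 85.7% beside 71.0%. TAATTA was in 12.5% of member promoters beside 20.4% of all, and TAATTG in 32.1% beside 25.2%, and neither was in a promoter of the 9 bound members. TGACNNNGC, the form bound by the Cap'n'collar and Maf factors, was in 6 of 56 (10.7%) beside 8.63%, and in none of the bound members.

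Genes that work with these complexes were described from lists of 53 genes, of which 13 (24.5%) were bound, beside the same 15.1% of all genes. The lists were chosen with earlier results of these data known, so their shares, here and below, are descriptions only. Of the ubiquitin precursors 2 of 4 were bound, RpS27A with a signal of 167.6 and Ubi-p63E with 77.2. RpS27A, which also counts among the cytoplasmic ribosomal protein genes, was bound in both single-replicate lists and Ubi-p63E in neither. The 13 partners were the assembly factor Pomp, regulators of the core, shuttles, deubiquitinases, the segregase TER94 with its cofactors, and Sem1. Only Pomp, the assembly factor of the core, was bound, with 159.9 at 208 bp upstream. Sem1 is a lid subunit that the symbol rule misses. It was bound in none of the 4 lists and had no ranked region in either replicate. TER94 was bound in the list of replicate 2 alone.

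Neddylation attaches NEDD8 to cullins, the modification that CSN5 removes. Of 17 genes of neddylation and cullin ligases 4 were bound, among them SkpA, the adaptor of cullin 1 ligases (253.4, 978 bp upstream), and both chains of the NEDD8-activating enzyme, Uba3 (218.6) and APP-BP1 (147.1). Uba3 and APP-BP1 had summits 44 and 21 bp upstream of their TSS. In the single-replicate lists SkpA and Uba3 were bound in both, and APP-BP1 in replicate 2 only. The gene for NEDD8 itself and the 5 cullin genes were not bound. In the larger list, slmb and ago, for F-box substrate receptors, were added.

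The translation factor eIF3 shares its subunit architecture with the lid and the signalosome. Of 16 eIF3 genes 3 were bound (18.8%): eIF3c (200.5), eIF3a (134.1) and eIF3h (113.1), with summits 7, 63 and 30 bp upstream. In the single-replicate lists eIF3c and eIF3h were bound in both, and eIF3a in replicate 1 only. All 3 listed regulators of proteasome genes were bound, away from the TSS itself. These were cnc, for the Cap'n'collar factor that activates proteasome genes under stress (114.1, 341 bp downstream), its partner maf-S (104.3, 622 bp downstream) and its inhibitor Keap1 (151.2, 863 bp upstream). In the single-replicate lists cnc was bound in replicate 1 only, maf-S in replicate 2 only and Keap1 in both.

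Because whole embryos mix all tissues, binding in a few cells and weaker binding in many cannot be told apart at any of these genes. The peak files hold no expression values, so the identity of the material could not be checked against markers.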

How the data were processed

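Anti-GFP ChIP-seq peaks of 2 biological replicates of 1 group were used, in dm6 coordinates per the labels. The authors deposited peak lists thresholded by IDR and the ranked regions behind them: a conservative list (2649 peaks, 2610 on the 6 arms), a larger list (3170) and a list for each replicate (2026 and 1803). The signal of each peak, on a scale that is not stated, its score (up to 1000) and, in the ranked files, the −log10 global IDR are values the authors deposited, and series-level signals come from pooled reads. The lowest score in each list was 830, a global IDR of 0.01. Aligner and peak caller: not given in the sources used here. Read depth is unknown.

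Genes and TSSs came from Ensembl release 115 and bases from the RefSeq genome of the same assembly. All TSSs of a gene were used, and overlapping windows let 1 summit count for several genes. Replicate signals of peaks were read from each replicate's own ranked regions, by an overlap of at least 1 bp with the peak. For each gene the strongest region within 1 kb was taken, separately in each replicate and in the pooled reads. Scripts used Python 3.11.15, pandas 2.3.3, numpy 2.4.6 and scipy 1.17.1, and the assignment of summits to genes was tested on simulated summits. Shares carry exact Clopper-Pearson 95% intervals. The genes named are the bound members, the 5 unbound members with the strongest ranked regions, genes that share a summit, and the bound genes of the pathway lists, of which 1 is not reported here. Prosbeta6, CSN3, Rpn7, Rpt3, alien and the unbound pathway genes named fall outside this rule and were chosen after their values were seen. The members and lists were chosen with earlier results of these data known. Alternatives were the other lists, a stricter IDR, other windows, assignment to the nearest TSS only and peak overlap.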

Additional observations from a re-analysis of the deposited data

How the results depend on the processing

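Of 75 alternatives to the 8 main results, 56 kept the value within 1.5 times the main count or, for the median signal, within 1 SD (23.7) between the lists of the replicates. That SD rests on only 2 medians, 56.1 and 89.6, which cover different genes on scales that are not stated. The 8 results are not independent. Every bound member was a plain gene, so the counts of bound members and of plain genes moved together. In the lists of single replicates, bound members numbered 5 to 6 (9 in the conservative list), plain genes 5 to 6, base genes 1 to 2, lid genes 1 to 2, signalosome genes 0 to 1 and upstream summits 5 to 5, with a median signal of 56.1 to 89.6. At a global IDR of 0.001 or below (1190 peaks), 3 members were left, all plain genes: Prosalpha3, Rpn3 and Rpt5, 1 each in core, lid and base, with 0 in the signalosome, 2 of 3 upstream, a median signal of 150.6 and 8.53% of all genes bound. Assigning each summit to the nearest TSS alone left 7 members, without Rpn5 and CSN5, and 0 signalosome genes. Counting alien, added after seeing the data, gave 2 signalosome genes. The larger list, a window of 500 bp and the RefSeq starts, the last also added later, each gave 9, and a window of 2 kb or any overlap with the window gave 10, with Prosbeta6. Why these counts moved was not tested. Depth could not be weighed, since the files hold no read totals. No paired analysis was possible because the study has only 1 group.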
